A study of Mus musculus with 18 samples.

Results

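The mRNAs of 10 collagen chains were followed in cultured 4T1 cells, a BALB/c mammary carcinoma line that serves as a mouse model of triple-negative disease. The 10 chains were taken by gene symbol from the 35976 symbols that each deposited count file lists: the fibrillar chains Col1a1, Col5a1, Col5a2 and Col11a1, the type IV chains Col4a1 and Col4a2, the type VI chains Col6a1 and Col6a2, the fibril-associated chain Col12a1 and the multiplexin Col18a1. Of these, 9 passed the filter on low counts and were tested, and Col5a2 did not pass. The control arm carried a non-silencing hairpin (NSi) and the other arm a hairpin against Dap5 (shDap5), and both arms received doxycycline at 2 µg/ml for 6 days. Polyadenylated RNA came from whole lysate (input) and from combined light and combined heavy polysome fractions of sucrose gradients, with 3 libraries for each arm and fraction and 18 in all. Dap5 is the protein made from Eif4g2, a relative of the scaffold eIF4G that takes part in translation initiation. Uninduced cells were not analysed here, so a difference between the lines that was present before induction cannot be told apart from one that came with the hairpin. No label says that replicate libraries were grown as separate cultures, so each p-value reflects only how far these libraries scatter, and that scatter may be technical.

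Collagens are trimers whose chains wind around each other wherever glycine recurs in the pattern Gly-X-Y. Fibrillar chains (types I, V and XI) hold a long uninterrupted helix and build fibrils, in which types V and XI lie inside the fibril and set its width. Type IV chains have an interrupted helix and form the sheet of basement membranes. Type VI forms beaded microfilaments next to cells, type XII sits on fibril surfaces, and type XVIII is a basement membrane proteoglycan whose C-terminal fragment is endostatin. Many collagen chains need a partner chain: Col4a1 pairs with Col4a2 in type IV, Col5a1 with Col5a2 in type V, and Col6a1 with Col6a2 and Col6a3 in type VI.

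The glycine repeat that joins the family can be read directly in the coding sequence. The first 6 triplet units of the longest uninterrupted run are shown for the 7 chains on which the results turn. They come from the GENCODE M21 transcripts (GRCm38), 5′ to 3′, with the glycine codon that opens each triplet in capitals. A glycine codon elsewhere in a triplet stays in lower case, as in the last triplet shown for Col11a1.
Col5a1: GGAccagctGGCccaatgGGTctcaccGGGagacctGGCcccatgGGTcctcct
Col11a1: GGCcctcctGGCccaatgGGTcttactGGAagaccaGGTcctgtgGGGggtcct
Col6a1: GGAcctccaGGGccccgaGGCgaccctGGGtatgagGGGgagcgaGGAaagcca
Col12a1: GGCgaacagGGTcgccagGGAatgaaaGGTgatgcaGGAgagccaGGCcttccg
Col4a1: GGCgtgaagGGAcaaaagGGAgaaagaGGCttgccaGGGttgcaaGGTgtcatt
Col4a2: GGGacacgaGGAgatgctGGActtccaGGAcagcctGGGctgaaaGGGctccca
Col18a1: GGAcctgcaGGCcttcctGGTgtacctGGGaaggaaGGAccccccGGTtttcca
The run extended over 338 triplets in Col1a1, Col5a1 and Col11a1 and over 339 in Col5a2. It was 87 triplets long in Col6a1 and Col6a2, and shorter in the chains with interrupted helices: 66 in Col4a2, 40 in Col4a1, 32 in Col12a1 and 30 in Col18a1. Aligned without gaps over the 338 triplets (3042 bases), Col5a1 and Col11a1 were identical at 73.3% of bases, with 20 bases as the longest identical stretch. Col1a1 was identical to Col5a1 at 48.2% and to Col11a1 at 48.8%. How the authors' counting treated a read shared by close relatives is not given in the sources used here.

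Total counts ran from 30385863 to 71331978 per library. The targeted gene, Eif4g2, stood at 799, 759 and 852 CPM (library-scaled counts, with TMM scaling) in NSi input and at 592, 340 and 671 CPM in shDap5 input. Its arms did not overlap there, but the input difference missed the threshold (log2 -0.59, edgeR adjusted p = 0.202). Eif4g2 fell on light polysomes (log2 -1.60, edgeR adjusted p = 0.00204) and on heavy polysomes (log2 -1.45, edgeR adjusted p = 0.00349). The 6 epithelial carcinoma markers were all above 1 CPM in every group. Their summed level ran from 1896 to 2188 CPM in NSi input and from 2682 to 3388 CPM in shDap5 input; on light polysomes it was 2044 to 3321 against 3293 to 4974 CPM, and on heavy polysomes 4182 to 5639 against 5514 to 5871 CPM. Of 9 fibroblast markers, 8 averaged under 1 CPM in both inputs, with Lum at 0 counts in both and Col3a1 at 0 in shDap5 input. Their sum was 30.9 to 40.5 CPM in NSi input and 23.5 to 30.4 CPM in shDap5 input, nearly all of it Pdgfra, and it overlapped between the arms on light and heavy polysomes. The summed levels of 7 endothelial markers were 2.60 to 3.44 CPM in NSi input and 0.90 to 1.62 CPM in shDap5 input. They overlapped on light polysomes and were 1.76 to 2.18 against 1.04 to 1.66 CPM on heavy polysomes. The 4 adipocyte markers, mostly Fabp4, with Lep at 0 counts in both inputs, summed to 2.42 to 2.93 CPM in NSi input and 0.404 to 0.818 CPM in shDap5 input. They were also apart on light (4.11 to 5.82 against 1.55 to 1.88 CPM) and heavy polysomes (3.26 to 6.28 against 1.46 to 2.78 CPM). The sum of the 6 macrophage markers, mostly Cd68, overlapped between the arms in every fraction (42.8 to 48.7 against 20.5 to 61.0 CPM in input). Within that list, mean Csf1r was 2.26 CPM in NSi input and 10.5 CPM in shDap5 input. Csf1r also averaged 1.85 against 5.86 CPM on light and 4.68 against 14.2 CPM on heavy polysomes. Mean Lyz2 was 0.799 CPM in NSi input and 0.0999 CPM in shDap5 input, and mean Cd68 43.0 and 24.6 CPM. The part of these marker differences in the collagen results was not tested.

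Of the 10 chains, those of basement membranes were the most abundant. Levels of different genes are compared per length, as CPM per kilobase of annotated exons (GENCODE M21), over the 3 NSi input libraries. On that scale Col4a1 led at 133 ± 0.859 (SD, n = 3), followed by Col4a2 at 100.2 ± 0.979 and Col18a1, whose mean was 61.0. Col5a1 came next with a mean of 16.2, then Col6a1 with 4.91 and Col12a1 with 1.60. The remaining chains were lower by more than an order of magnitude: Col1a1 0.104, Col11a1 0.0838, Col6a2 0.0460 and Col5a2 0.00437 CPM per kilobase. Col5a2 and Col6a2 were thus far below their partners Col5a1 and Col6a1, while Col4a1 and Col4a2 were close. Among 34 other collagen symbols in the files, those with at least 5 CPM on average over the 18 libraries were Col8a1 (59.9 CPM per kilobase in NSi input), Col16a1 (19.5), Col4a5 (17.3), Col7a1 (9.41) and Col20a1 (2.43).

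**Figure D1:**
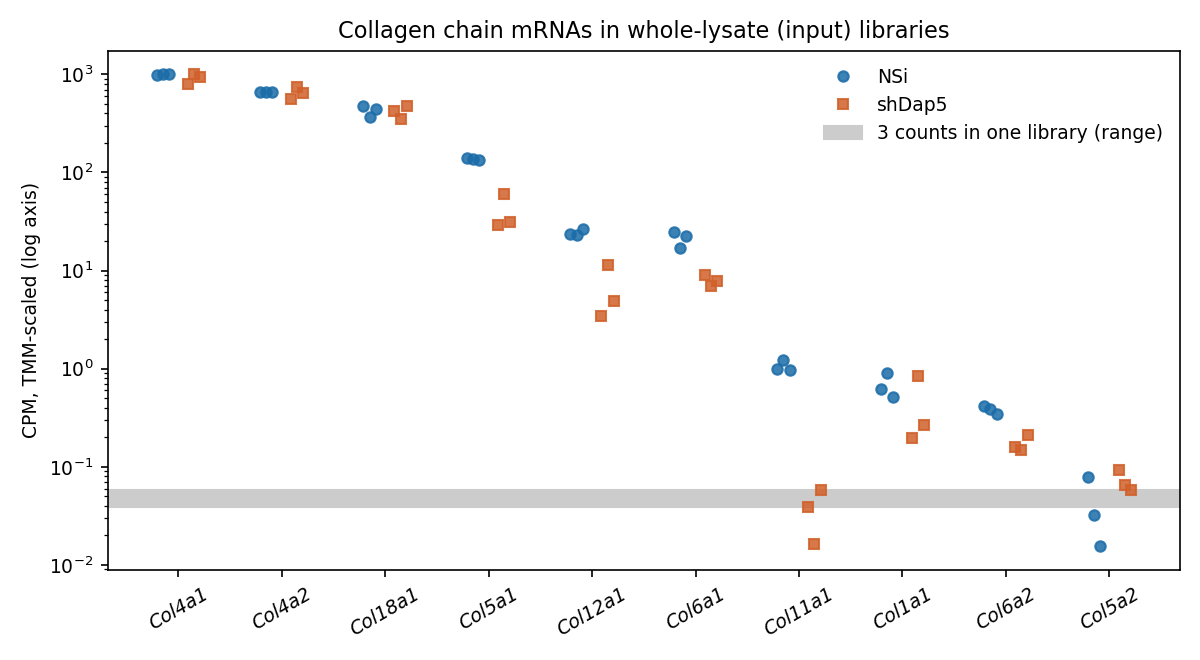
CPM (TMM-scaled, log axis) of the 10 collagen chains in the 3 NSi and 3 shDap5 input libraries, 1 point per library, with a grey band at the level of 3 counts. Col5a1, Col12a1, Col6a1, Col6a2 and Col11a1 sit lower in every shDap5 library than in any NSi library, Col4a1, Col4a2 and Col18a1 lie at or near the same level, and Col5a2 and the shDap5 points of Col11a1 lie in or near the band.

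In input, 3 of the 9 tested chains fell in shDap5 cells, Col5a1, Col6a1 and Col11a1, and none rose. Over all 15072 genes tested, 3.94% were called lower and 3.01% higher in that comparison, where called means an edgeR adjusted p under 0.05. On light polysomes the same 3 chains fell and none rose, beside 1.64% of all genes called lower and 1.83% called higher. On heavy polysomes they fell again with none rising, beside 1.92% lower and 2.03% higher. Col11a1 passed the filter only through its NSi libraries and so had to differ; leaving it aside, 2 of 8 chains were called in each fraction. In bulk RNA, fewer cells that express a gene and less RNA per cell cannot be told apart.

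Col5a1, the chain found in most type V trimers, fell in every fraction. In input it stood at 141, 138 and 134 CPM in NSi and at 28.8, 60.5 and 31.0 CPM in shDap5. All shDap5 libraries were well under all NSi libraries, and shDap5 2 was the highest of its arm. The fitted fall was 3.43-fold (log2 -1.78, SE 0.29, edgeR adjusted p = 0.00095). On light polysomes Col5a1 measured 22.7, 35.9 and 38.7 CPM in NSi against 12.6, 14.6 and 16.6 CPM in shDap5. Heavy polysomes gave 72.4, 98.7 and 72.5 CPM in NSi and 24.1, 51.3 and 35.0 CPM in shDap5. The arms did not overlap in either fraction. The fall was 2.22-fold on light polysomes (log2 -1.15, SE 0.29, edgeR adjusted p = 0.034) and 2.20-fold on heavy polysomes (log2 -1.14, SE 0.29, edgeR adjusted p = 0.0319). Both polysome calls sat close to the threshold. On light polysomes the call was lost on leaving out any 1 of NSi 2, NSi 3, shDap5 1, shDap5 2 or shDap5 3, with an adjusted p of up to 0.124, and on heavy polysomes without NSi 1, NSi 2, shDap5 1 or shDap5 3, with an adjusted p of up to 0.138. Without each library in turn the log2 change stayed between -1.35 and -1.002 on light polysomes and between -1.45 and -0.91 on heavy polysomes. In input the call held without each of the 6 libraries, with an adjusted p of at most 0.0105.

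Col11a1, the type XI chain that is close to Col5a1 in sequence, was at low counts in NSi and near 0 in shDap5. Input counts were 63, 77 and 63 in NSi and 3, 1 and 3 in shDap5. Light polysome counts were 133, 28 and 42 against 0, 0 and 2, and heavy polysome counts 111, 10 and 28 against 1, 0 and 0. Every NSi library was above every shDap5 library, while the NSi polysome libraries differed widely, with NSi 1 the highest in both fractions. A library with 0 counts could still hold up to 3 counts, and all 9 shDap5 libraries were at or under that limit. After scaling for depth, the summed shDap5 level was 0.0347 of the NSi level in input (95% exact interval 0.0138 to 0.0728), 0.0108 on light polysomes (0.0013 to 0.0396) and 0.00516 on heavy polysomes (0.00013 to 0.0292). These intervals cover counting error only. Col11a1 was below the edgeR threshold in all 3 fractions (adjusted p = 0.00279, 0.00262 and 0.00204), but since only its NSi libraries brought it past the filter these values are a description. With only the heavy libraries in the fit, the Col11a1 difference missed the threshold (edgeR adjusted p = 0.063), as did those of Col5a1 (0.184) and Col6a1 (0.109).

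Promoter windows are shown for Col5a1 and Col11a1 as neighbours in sequence that were lower in all fractions, and not for every chain that fell. They are the 250 bases before the annotated start, from RefSeq (GRCm38.p6; the deposited counts used mm9), with GC boxes (GGGCGG on either strand) and CCAAT boxes (CCAAT on either strand) in capitals. The Col5a1 window is chr2:27886175-27886424 on the + strand and the Col11a1 window chr3:114030290-114030539 on the + strand, and neither overlaps an annotated exon.
Col5a1 promoter: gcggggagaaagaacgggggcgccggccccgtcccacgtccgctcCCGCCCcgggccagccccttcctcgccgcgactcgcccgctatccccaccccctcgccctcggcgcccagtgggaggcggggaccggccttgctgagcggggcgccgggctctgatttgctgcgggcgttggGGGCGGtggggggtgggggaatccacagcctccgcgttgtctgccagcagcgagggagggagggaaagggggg
Col11a1 promoter: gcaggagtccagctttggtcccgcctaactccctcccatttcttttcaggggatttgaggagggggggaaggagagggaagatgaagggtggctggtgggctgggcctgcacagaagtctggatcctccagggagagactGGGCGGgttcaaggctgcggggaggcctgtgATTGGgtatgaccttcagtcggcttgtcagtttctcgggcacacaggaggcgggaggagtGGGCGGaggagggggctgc
The Col5a1 window held 2 GC boxes and no CCAAT box, with 76.4% G and C. The Col11a1 window held 2 GC boxes and 1 CCAAT box, with 62.4% G and C. Neither held TATAAA. Of 32851 windows of this length in the table, 32.7% held a GC box, 33.8% a CCAAT box and 12.4% TATAAA. A match describes letters only and does not show binding. Promoter entries were matched for 7 of the 10 chains, and Col1a1, Col5a2 and Col12a1 had none. The window of Col6a1, which was also called lower in every fraction, held 0 GC boxes and 0 CCAAT boxes. Among chains not called between the arms, Col4a1 held 0 GC boxes and Col4a2 held 2. Col6a2 and Col18a1 have 2 windows each, with 3 and 1 GC boxes for Col6a2 and 3 and 0 for Col18a1.

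Col1a1, the main chain of type I collagen, was close to the limit of counting in 4T1 cells. Its input counts were 40, 56 and 33 in NSi and 15, 52 and 14 in shDap5, so the arms overlapped through shDap5 2. Light polysome counts were 5, 129 and 44 against 14, 14 and 23, and heavy polysome counts 5, 5 and 21 against 11, 5 and 20. NSi light 2 stood far above its group. No difference between the arms passed the test (input log2 -0.63, light log2 -1.71 with edgeR adjusted p = 0.296, heavy log2 -0.14). Col5a2, the usual partner of Col5a1, had between 0 and 11 counts in any library. Its counts in input summed to 8 in NSi and 14 in shDap5, with 17 and 8 on light and 8 and 5 on heavy polysomes. No difference was detectable for Col5a2 at this depth: each exact interval of the ratio between arms included 1 (0.690 to 4.85 in input, 0.193 to 1.26 for light and 0.124 to 1.67 for heavy polysomes).

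Type VI collagen was represented by Col6a1, and it fell in every fraction. In input Col6a1 measured 24.9, 16.9 and 22.6 CPM in NSi and 9.09, 6.95 and 7.88 CPM in shDap5. Heavy polysomes gave 19.4, 21.2 and 26.0 CPM against 7.48, 10.6 and 12.4 CPM. The arms did not overlap in these fractions. On light polysomes, where NSi had 4.87, 7.50 and 11.4 CPM and shDap5 3.19, 2.76 and 4.95 CPM, shDap5 3 lay above NSi 1. The falls were 2.69-fold in input (log2 -1.43, SE 0.28, edgeR adjusted p = 0.00427), 2.19-fold on light (log2 -1.13, SE 0.29, edgeR adjusted p = 0.0394) and 2.19-fold on heavy polysomes (log2 -1.13, SE 0.28, edgeR adjusted p = 0.0316). The light call was lost without NSi 2, NSi 3, shDap5 1 or shDap5 2 (adjusted p of up to 0.192), and the heavy call without NSi 2, NSi 3, shDap5 1 or shDap5 2 (adjusted p of up to 0.117). With only the light libraries in the fit, the light difference missed the threshold (log2 -1.13, edgeR adjusted p = 0.151). Without each library in turn the log2 change stayed between -1.41 and -0.77 for light and between -1.30 and -0.95 on heavy polysomes. The input call held without each of the 6 libraries.

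Col6a2, the partner encoded on the same chromosome, was low. Input counts were 27, 24 and 22 in NSi and 12, 9 and 11 in shDap5, which did not overlap. Light polysome counts were 4, 76 and 42 against 6, 3 and 8, and heavy polysome counts 13, 18 and 39 against 14, 8 and 29; both overlapped. None of the differences passed the test (input log2 -1.15, edgeR adjusted p = 0.403; light log2 -2.72, edgeR adjusted p = 0.0508; heavy log2 -0.85, edgeR adjusted p = 0.575). With the replicate number as a block within each fraction, the light difference passed (log2 -2.37, edgeR adjusted p = 0.0337), as it did in DESeq2 (adjusted p = 0.00714). It also passed without NSi 1 (log2 -3.27, edgeR adjusted p = 0.00353). Between Col6a1 and Col6a2 there were 54.4 counts to 1 in NSi input and 44.6 to 1 in shDap5 input (geometric means), a difference of -0.29 on the log2 scale (two-sided exact permutation p = 0.3).

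Col12a1, a fibril-surface collagen, had large differences and a wide spread. Input levels were 23.7, 22.9 and 26.5 CPM in NSi and 3.43, 11.4 and 4.94 CPM in shDap5. The arms were apart, and shDap5 2 was the highest of its arm, as it was for Col5a1. That library also had the lowest Eif4g2 of its arm (340 CPM, against 592 and 671 CPM). Its chi-square per degree of freedom was 122 to shDap5 1 and 121 to shDap5 3, against 11.0 between those 2. The input difference was log2 -1.89 (SE 0.57) and missed the threshold with an edgeR adjusted p of 0.0537. Without shDap5 2 it passed (log2 -2.54, edgeR adjusted p = 0.0161), as it did in DESeq2 (adjusted p = 0.0386). Light polysomes held 4.01, 8.73 and 3.84 CPM in NSi against 2.40, 3.45 and 0.922 CPM in shDap5, without overlap (log2 -1.28, edgeR adjusted p = 0.293). Heavy polysomes held 11.5, 12.2 and 4.39 CPM against 5.61, 8.03 and 1.44 CPM, with overlap (log2 -0.90, edgeR adjusted p = 0.456). Replicate 3 was the lowest of its group in all 4 polysome groups. With the replicate number as a block within each fraction, both polysome differences passed (light log2 -1.32, edgeR adjusted p = 0.0304; heavy log2 -1.05, edgeR adjusted p = 0.0492).

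The basement membrane chains, the most abundant of the family, did not pass the test in any fraction. Col4a1 in input was 989, 999 and 1001 CPM in NSi and 798, 998 and 933 CPM in shDap5. Col4a2 in input was 666, 656 and 668 CPM in NSi and 555, 752 and 649 CPM in shDap5. Col18a1 in input was 473, 371 and 442 CPM in NSi and 420.5, 352 and 481 CPM in shDap5. The arms overlapped for Col4a2 and Col18a1, and for Col4a1 through shDap5 2. The log2 change was -0.13 for Col4a1 (SE 0.41), -0.03 for Col4a2 (SE 0.39) and -0.04 for Col18a1 (SE 0.23), with edgeR adjusted p-values of 0.911 and above. On polysomes all arms of these chains overlapped, and the log2 changes lay between -0.11 for Col18a1 on heavy and 0.31 for Col4a2 on light polysomes. Within a polysome group the libraries of Col4a1 spread over more than 2-fold: NSi heavy gave 725, 847 and 253 CPM for Col4a1, and shDap5 heavy 508, 1172 and 429 CPM.

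**Figure D2:**
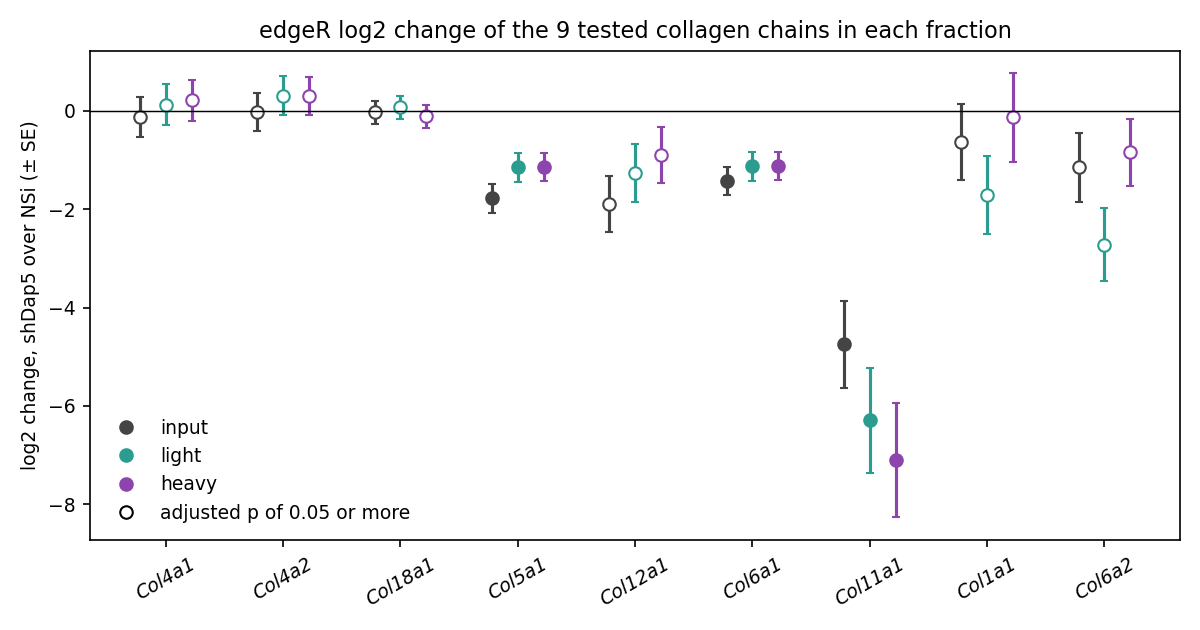
edgeR log2 change (shDap5 over NSi, ± SE) of the 9 tested chains in input, light and heavy polysomes, with filled points for an adjusted p under 0.05. Col5a1, Col6a1 and Col11a1 are filled and below 0 in all 3 fractions, Col12a1 is below 0 and open, and Col4a1, Col4a2 and Col18a1 lie between -0.13 and 0.31; the size of the Col11a1 change depends on the constant added to near-zero counts.

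Whether the change on polysomes departed from that in input was tested as an interaction. No chain passed in any of the 3 interactions (heavy or light relative to input, and heavy relative to light), nor did any other gene (0% called in each). At an unadjusted p under 0.05, edgeR gave 295, 320 and 181 of 15072 genes and none of the 9 chains. Each count is under a share of 0.05 of the genes, the share to be met when no gene differs. These p-values thus ran high, and the lack of calls does not show that the changes were equal. DESeq2 called 0 genes in each interaction. For Col5a1 the interaction against input was log2 0.64 (SE 0.40) on heavy and 0.63 (SE 0.40) on light polysomes. For Col6a1 the interaction was log2 0.30 (SE 0.40) on heavy and 0.30 (SE 0.40) on light polysomes, and relative to each other the fractions differed by 0.00 (SE 0.35). The SE of these interactions was 0.32 to 0.40 on the log2 scale for Col5a1, Col6a1 and Col18a1 and 0.55 to 0.59 for the type IV chains, which limits the size of difference that could be seen.

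The 2 type IV chains are transcribed head to head from a shared start region on chromosome 8, and their ratio within a library needs no scaling between libraries. In NSi input there were 1.48, 1.52 and 1.50 Col4a1 counts per Col4a2 count, and in shDap5 input 1.44, 1.33 and 1.44. On light polysomes the ratio was 1.39, 1.39 and 1.36 in NSi against 1.22, 1.21 and 1.22 in shDap5. Both pairs of groups were apart, with the lower ratio in shDap5. Heavy polysomes gave 1.54, 1.40 and 1.18 against 1.19, 1.39 and 1.36 and overlapped. The geometric mean moved from 1.50 to 1.40 in input, from 1.38 to 1.22 in light and from 1.36 to 1.31 in heavy polysomes. The two-sided exact permutation p was 0.1 in input and light, which is the smallest that 3 against 3 can give, and 0.7 in heavy; adjusted over the 9 chain ratios computed they were 0.3, 0.3 and 0.8. These 2 genes share 22 exon bases on opposite strands in the annotation, and Col4a2 shares 43 with the antisense gene Gm15419; Col5a1 shares 113 and 99 with the antisense genes Gm13372 and 2810430I11Rik. Whether counting used strand is not given in the sources used here.

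**Figure D3:**
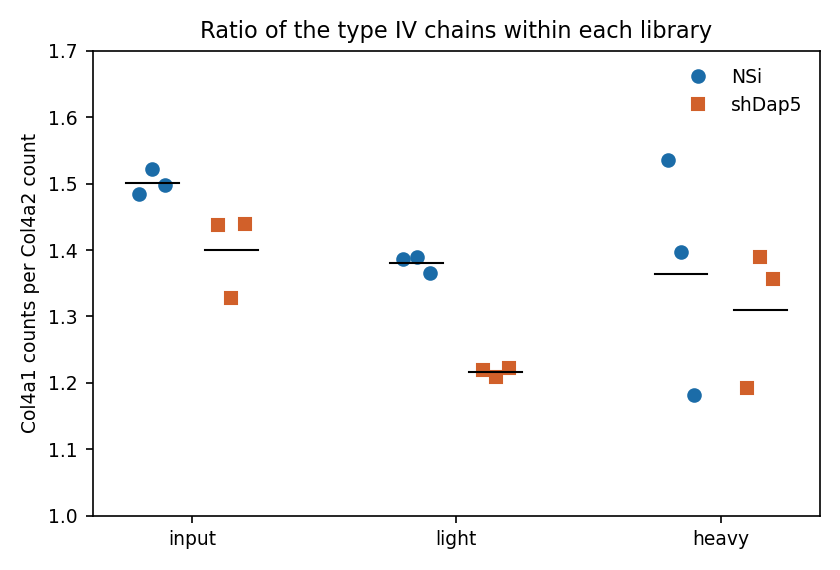
Col4a1 counts per Col4a2 count in each of the 18 libraries, by fraction and arm, with bars at the geometric mean; the axis starts at 1. In input and on light polysomes every shDap5 library lies below every NSi library, and on heavy polysomes the arms overlap.

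The position of the chains along the gradient was read in the NSi arm. From input to light polysomes 6 of the 9 tested chains fell and 1 rose, beside 24.7% of all genes called lower and 26.7% higher. From light to heavy polysomes 5 rose and 1 fell, beside 27% called higher and 25.6% lower. From input to heavy polysomes 1 fell and none rose, beside 20.2% lower and 26.4% higher. CPM are shares of a library, so these are shifts in relative abundance and not in the amount of RNA per fraction.

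Col18a1 had the largest rise among the chains from light to heavy polysomes (log2 2.32, SE 0.24, edgeR adjusted p = 9.4e-07), with 71.0, 98.3 and 96.1 CPM in light and 505, 477 and 348 CPM in heavy NSi libraries. Its input to light step was log2 -2.28 (SE 0.24), and its heavy level was back at that of input (log2 0.05, SE 0.23). Col4a1 fell by 2.54 and Col4a2 by 2.42 on the log2 scale from input to light and rose by 1.82 and 1.79 from light to heavy. Col5a1 fell by 2.09 and rose by 1.32, and was also called lower in heavy polysomes than in input (log2 -0.76, SE 0.28, edgeR adjusted p = 0.0351). That call was lost without any 1 of NSi input 1, 2 or 3, NSi heavy 1 or NSi heavy 3 (adjusted p of up to 0.107). In that step Col12a1 differed by log2 -1.38 (edgeR adjusted p = 0.0522), Col4a1 by -0.71 (0.171) and Col4a2 by -0.62 (0.198). All 3 passed with the replicate number as a block within arm (log2 -1.51, -0.88 and -0.76; edgeR adjusted p = 0.00388, 0.0241 and 0.0262), and Col12a1 also with RLE scaling (0.0451) and with only the compared groups (0.0083). That block pairs NSi input with NSi heavy libraries by number. Deviations from group means of those same-numbered libraries correlated at only -0.136 to 0.0647, so the numbers were not taken to pair them. Col6a1 fell by 1.44 and rose by 1.48. Col12a1 fell by 2.14 from input to light (edgeR adjusted p = 0.0051), while its light to heavy change did not pass (log2 0.76, edgeR adjusted p = 0.268). In the shDap5 arm the same chains were also at their lowest on light polysomes, as group means: Col5a1 at 40.1 ± 17.7 (SD, n = 3) in input, 14.6 ± 1.96 on light and 36.8 ± 13.7 CPM on heavy polysomes, and Col18a1 at 418 ± 64.3, 92.9 ± 9.99 and 409 ± 153 CPM.

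**Figure D4:**
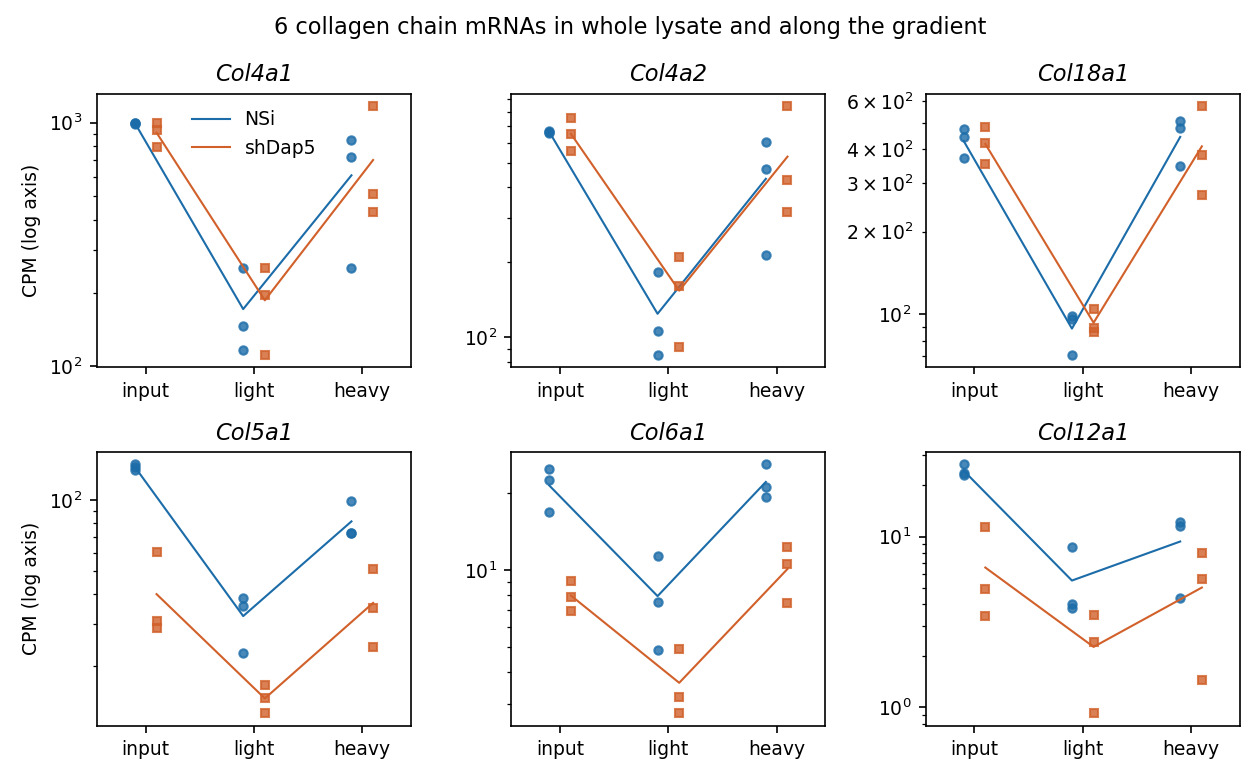
CPM (log axis) of 6 collagen chains in input, light and heavy polysomes, 1 point per library and lines through the group means of the NSi and shDap5 arms. All 6 are lowest on light polysomes in both arms, and the arms lie apart for Col5a1, overlap by 1 library on light polysomes for Col6a1, and overlap in every fraction for Col4a1, Col4a2 and Col18a1.

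Among the low-count chains, Col6a2 and Col1a1 each had 1 called step, opposite in direction to that of the abundant chains. Each call leaned on 1 library. Col6a2 rose from input to light (log2 1.59, edgeR adjusted p = 0.0478), with 76 of its 122 NSi light counts in replicate 2. Without that library the rise did not pass (log2 0.67, edgeR adjusted p = 0.42), nor did it without NSi light 3 or any 1 NSi input library (adjusted p of 0.0828 to 0.122). The rise also missed the edgeR threshold with RLE scaling (adjusted p = 0.0513), no filter (0.0508) and the replicate block (0.0596). The same held for the block within arm (0.105) and only the compared groups (0.079), while in DESeq2 the rise passed. Col1a1 fell from light to heavy (log2 -2.55, edgeR adjusted p = 0.0167), with 129 of 178 light counts in replicate 2. Without that library the change was log2 -1.16 (edgeR adjusted p = 0.24), and it did not pass without NSi heavy 1 or 2 either (0.0719 and 0.0583). With no filter the Col1a1 fall missed the threshold as well (edgeR adjusted p = 0.0604). Col11a1 did not pass in any step; without NSi heavy 1 its light to heavy change did (log2 -1.71, edgeR adjusted p = 0.0419).

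Likeness of pattern was measured as the root mean square difference of mean-centred log2 CPM over the 18 libraries, against 15071 other tested genes. Col4a1 and Col4a2 were each other's nearest gene, at 0.122. The nearest gene to Col5a1 was Thbs3 (0.403), a thrombospondin, and Col6a1 ranked 9th (0.462). The nearest to Col6a1 was Pla2g7 (0.312), with Col5a1 at rank 14. Serpini1 lay nearest to Col12a1 (0.456), Heatr5b to Col18a1 (0.272), Nckap5l to Col6a2 (0.676), Akr1b7 to Col1a1 (0.766) and Alx1 to Col11a1 (1.09). The libraries share fractions and arms, so these distances are a description.

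Of the 34 other collagen symbols 16 were tested. In input 1 rose and 1 fell, beside 3.01% of all genes called higher and 3.94% lower, and none passed on light or heavy polysomes. Col15a1, the other multiplexin, rose from 0.568 ± 0.0905 to 1.88 ± 0.150 CPM (SD, n = 3; log2 1.73, edgeR adjusted p = 0.0177). Col14a1, a relative of Col12a1 on fibril surfaces, fell from 0.629 ± 0.145 to 0.161 ± 0.0263 CPM (log2 -1.95, edgeR adjusted p = 0.00578). Their median log2 change was -0.05 in input, 0.25 on light and -0.18 on heavy polysomes, beside 0.05, -0.01 and 0.01 over all genes. Col1a2, a partner chain in type I, and Col6a3, a partner chain in type VI, did not pass the filter. Col11a2, a type XI chain, passed it and averaged 3.57 CPM in NSi input and 3.45 CPM in shDap5 input.

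The list for collagen folding and export holds enzymes of the endoplasmic reticulum, chaperones and transport factors. Of its 22 tested genes most were not called: 3 fell and 1 rose in input, 1 fell and 1 rose on light, and 2 fell and 1 rose on heavy polysomes, against the all-gene shares given above. P4ha2, a catalytic subunit of prolyl 4-hydroxylase, fell in all 3 fractions (log2 -1.75, -1.31 and -1.53 in input, light and heavy; edgeR adjusted p = 0.000133, 0.00368 and 0.00102). Plod1, a lysyl hydroxylase, fell in input and heavy polysomes (log2 -0.88 and -0.78). Colgalt2, a collagen galactosyltransferase, fell in input from a very low level (log2 -2.33). P3h4, a partner in lysine hydroxylation of the helix, rose in all 3 fractions (log2 1.63, 2.25 and 1.90). Of 8 genes for processing and crosslinking, 1 fell in each fraction, beside the same all-gene shares. Loxl3, a lysyl oxidase-like enzyme, fell in input (log2 -1.49). Adamts14, a procollagen N-proteinase, fell on light and heavy polysomes (log2 -0.68 and -0.71).

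Among 11 collagen receptors 1 fell in each fraction, Antxr1, a cell surface protein that binds collagen (log2 -1.46, -0.95 and -0.85 in input, light and heavy; edgeR adjusted p = 7.9e-05, 0.00661 and 0.0122). Of 13 basement membrane partners of type IV, 1 rose and 1 fell in input, the fall being that of Lama4, a laminin α chain (log2 -1.75). None passed on light polysomes, and Lama2 fell on heavy polysomes from a very low level (log2 -2.48). Of 8 fibril partners, Sparc, a collagen-binding matricellular protein, fell in every fraction (log2 -1.17, -0.69 and -0.98; edgeR adjusted p = 0.000755, 0.0451 and 0.00563). For these 3 lists, the shares of all genes called lower were 3.94% in input, 1.64% on light and 1.92% on heavy polysomes. The shares called higher were 3.01%, 1.83% and 2.03%. Over the 9 tested chains themselves, the median log2 change was -1.15 in input, -1.15 on light and -0.85 on heavy polysomes, a description that includes Col11a1.

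With respect to the counting floor, the chains fell into distinct ranges. The filter asked for about 0.230 CPM, which equals 10 counts at the median depth. Col4a1, Col4a2, Col18a1, Col5a1, Col6a1 and Col12a1 were above it in all 18 libraries. Col11a1 reached it in 3 of 3 libraries of every NSi group and 0 of 3 of every shDap5 group. Col1a1 reached it in 3, 2 and 1 of the NSi libraries of input, light and heavy and in 2, 3 and 2 of the shDap5 libraries. Col6a2 reached it in 3, 2 and 3 against 0, 1 and 2. Col5a2 reached it in 1 library, of NSi light.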

How the data were processed

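Each library has 1 file of raw read counts by gene symbol, deposited by the authors without scaling. Bowtie and the build mm9 are named in the submitters' processing notes; for the counting program, annotation and use of strand, nothing is given in the sources used here. Counts were tested with edgeR 4.0.16 in R 4.3.3 (quasi-likelihood F test, robust, TMM, filterByExpr with a minimum count of 10), with all 18 libraries in 1 fit, 1 mean per group and 12 residual degrees of freedom. P-values were adjusted by Benjamini-Hochberg over the 15072 genes tested, and a call is an adjusted p under 0.05. Only the input comparison between the arms was tried on simulated data, with independent libraries and changes set in genes above 1 CPM. Changes in low-count genes, the polysome comparisons and the interactions were not tried in this way. Of the symbols, 2 occurred more than once, and none of them is a chain.

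The 10 chains and the gene lists were chosen with earlier results of these data known. Named genes were the 10 chains, up to 4 called genes per list and comparison between arms by smallest p, other collagens averaging at least 5 CPM, and the nearest gene of each tested chain. Replicate numbers were checked as pairs: deviations from group means of same-numbered libraries of the 2 arms correlated at 0.0526 to 0.513, over 0.1 in 8 of 9 pairs and in every light and heavy pair, so numbers were taken to pair light and heavy libraries but not inputs. Input pairs 1, 2 and 3 stood at 0.0526, 0.275 and 0.234. Within an arm, same-numbered light and heavy libraries correlated at 0.312 to 0.467, over 0.1 in 6 of 6 pairs. The main fit held no block, so its light and heavy comparisons, between the arms and within an arm, leave that pairing out. The interaction of heavy relative to light leaves it out too. With the block within arm, the same 6 chains were called between NSi light and heavy polysomes. With the block within fraction, Col5a1, Col6a1, Col6a2, Col11a1 and Col12a1 were called on light polysomes. The same block called Col5a1, Col6a1, Col11a1 and Col12a1 on heavy polysomes. No replicates agreed within counting noise (chi-square per degree of freedom 8.82 at the lowest). Alternatives were RLE scaling, no filter, a replicate block, only the compared groups, DESeq2 1.42.0 and each library left out. A gene that the naming rule takes is not reported here.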

Additional observations from a re-analysis of the deposited data

How the results depend on the processing

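No direction of a called chain reversed under any alternative. The number of chains called between the arms was 3 in each fraction. With only the compared groups in the fit it was 5 in input, 2 on light polysomes, where Col6a1 was lost, and 0 on heavy polysomes; with the replicate block within each fraction it was 5 on light polysomes. For NSi heavy against input, where 1 chain was called, the count was 2 with RLE size factors, 4 with the replicate block, 4 with the replicate block within arm and 2 with only the compared groups. Leaving out 1 library at a time gave 3 to 4 called chains in input, 1 to 4 for light and 1 to 2 for heavy polysomes. Within the NSi arm it gave 0 to 1 for heavy against input, 6 to 8 for light against input and 5 to 7 for heavy against light. The counts between the arms include Col11a1, which had to differ. Where a polysome count was 1, the chain called was Col11a1, so no other chain was then called.

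The replicate block over all libraries called Col12a1 in input (log2 -2.11, edgeR adjusted p = 0.00237), as did the block within fraction (log2 -2.06, 0.00122), and called falls of Col4a1 (log2 -0.87) and Col4a2 (log2 -0.76) from NSi input to heavy polysomes. All of these block calls pair input libraries by number, a pairing not taken to hold for inputs. Over all genes, calls between the arms numbered 1047, 523 and 595 in input, light and heavy. They became 1798, 1013 and 1122 with the replicate block, 3330, 2431 and 2765 with the block within fraction, 2218, 219 and 56 with only the compared groups, and 1555, 995 and 1050 in DESeq2. For single chains and comparisons that were called, 236 alternatives kept the call and 40 lost it; for those not called, 833 stayed uncalled and 24 gained a call. Depth limits Col5a2, Col1a1, Col6a2 and Col11a1, which lie near the counting floor in some or all groups.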

Other observations

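Col7a1, the anchoring fibril collagen of epithelia, stood at 96.8 ± 17.9 CPM (SD, n = 3) in NSi input and 194 ± 22.5 CPM in shDap5 input. The difference of log2 1.01 missed the threshold (edgeR adjusted p = 0.0803). In the NSi arm, 13 of the 16 other collagens tested fell from input to light polysomes and none rose. Over all genes, 24.7% were called lower and 26.7% higher in that step. From light to heavy polysomes 7 rose and none fell, beside 27% of all genes called higher and 25.6% lower. From input to heavy polysomes 6 fell and none rose, beside 20.2% of all genes called lower and 26.4% higher. Among those 6 were Col7a1 (log2 -1.72) and Col4a5, a type IV chain (log2 -1.43).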
